A study of Mus musculus with 2 samples.

Results

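The cells described here were taken from newborn mouse lung because they carried mRNA of Tgfbi, a secreted matrix protein induced by TGF-beta, together with Pdgfra or Ednrb, and no mRNA of 3 muscle genes. They were chosen by measured values: at least 2 unique molecular identifiers (UMIs, each standing for 1 captured mRNA molecule) of Tgfbi, at least 1 UMI of Pdgfra and Ednrb together, 0 UMIs of Actg2, Cnn1 and Des, and 0 UMIs of Epcam, Pecam1, Ptprc, Tyrobp and Fcer1g, which mark epithelial, endothelial and immune cells. Of 8003 cells, 149 met the rule, or 1.86% (95% Wilson interval 1.59 to 2.18%). They were 37 of 2388 cells of Batch 1, or 1.55% (1.13 to 2.13%), and 112 of 5615 cells of Batch 2, or 1.99% (1.66 to 2.39%). The intervals cover counting error only.

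The data are Drop-seq profiles, a droplet method that reads the 3' end of mRNAs of single cells, from the whole lungs of 2 wild type female C57BL/6J mice at postnatal day 1, 1 mouse in each batch. There was no treatment and no other condition, and each result below compares groups of cells within the same mice. Counts were summed per mouse for the tests, since cells of 1 mouse share their source. With 2 mice the fits leave 1 or 2 residual degrees of freedom, and mouse and batch cannot be told apart. A p-value below thus rests largely on a spread estimated over all genes, and is a weak guide to how mice differ. The batches shared 0 cell barcodes.

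Alveolar myofibroblasts are PDGFRA-bearing mesenchymal cells that deposit elastin at the tips of the growing septa which divide the air spaces after birth. They respond to PDGF, hedgehog and TGF-beta ligands, and carry contractile proteins, while the smooth muscle of airways and vessels holds a fuller contractile apparatus and matrix fibroblasts (lipofibroblasts among them) depend on the transcription factor TCF21. Ednrb encodes the type B endothelin receptor, which endothelial cells of the lung also carry. In the GRCm38 annotation (GENCODE M21), Tgfbi lies on the plus strand of chromosome 13 from 56609523 to 56639562, Pdgfra on the plus strand of chromosome 5 from 75152292 to 75198215, and Ednrb on the minus strand of chromosome 14 from 103814625 to 103844402. UMIs were counted over exons.

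The values that chose the cells are given as a description, without a test. The median cell held 5 Tgfbi UMIs in either batch, with a range of 2 to 22 in Batch 1 and 2 to 72 in Batch 2. Tgfbi made up 55.7 and 47.6 of every 10000 UMIs of the selected cells in Batch 1 and Batch 2. In all that follows, a pair of levels is given in this unit, UMIs per 10000 UMIs summed over the cells of a group, with Batch 1 first. Pdgfra rested on few molecules, 32 UMIs in 20 cells of Batch 1 and 75 UMIs in 51 cells of Batch 2, and no cell held more than 4. Ednrb gave 62 and 167 UMIs, with at most 12 in a cell. Pdgfra without Ednrb was seen in 9 and 24 cells, Ednrb without Pdgfra in 17 and 61 cells, and both receptors in 11 and 27 cells.

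The selected cells were shallower at the median than the other cells in both batches. They held a median of 1050 UMIs and 699 genes in Batch 1 and of 1669 UMIs and 996.5 genes in Batch 2, against 1390 and 2029 UMIs in all other cells. Mitochondrial transcripts made up a median of 1.55% and 4.73% of their UMIs. A single UMI of a rare receptor is easily missed at this depth, so a cell without Pdgfra or Ednrb may still express it, and with every cell thinned to 600 UMIs before the rule was applied 24 and 56 cells (1.01% and 0.997%) were left.

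The label of these cells as myofibroblasts was checked against 2 gene lists. Acta2, which encodes smooth muscle actin, was found in 17 of 37 cells of Batch 1 (45.9%) but in 15 of 112 cells of Batch 2 (13.4%). In Tcf21-bearing matrix fibroblasts it was found in 15.5% and 8.41% of cells, in smooth muscle-like cells with Tgfbi in 68.6% and 41.8%, and in cells with Pecam1, which should lack it, in 4.09% and 3.61%. The summed level of 25 contractile genes was 79.7 and 42.2 in the selected cells. It was 189 and 118 in smooth muscle-like cells and 58.9 and 43.0 in matrix fibroblasts. In Batch 2 the level of all selected cells was thus no higher than that of matrix fibroblasts. Without the endothelial-rich and hemoglobin-rich cells described below, the selected cells stood at 89 and 47.3. Since the rule demanded 0 UMIs of Actg2, Cnn1 and Des, a low contractile level is in part what was selected. The authors of the data describe a myofibroblast type, MyoFB-1, with Pdgfra and Ednrb but without these muscle genes, and list it as Acta2-negative. They list another type, MyoFB-2, as positive for Pdgfra and for Acta2. Few cells with Acta2, as in Batch 2, therefore do not by themselves count against the label. Which of these types the selected cells belong to was not tested. Of the alveolar myofibroblast list, Agt was found in 83.8% and 70.5% of cells and Enpp2 in 62.2% and 74.1%, against 2.73% and 3.18% for Agt, and 9.32% and 13.4% for Enpp2, in cells with Pecam1, which had median depths of 1750.5 and 2250 UMIs. Other genes of that list were found in fewer cells, Igf1 in 35.1% and 43.8%, Penk in 21.6% and 35.7% and Hhip in 16.2% and 31.2%. In smooth muscle-like cells Igf1 was found in 47.1% and 35.8%, Penk in 17.1% and 23.9% and Hhip in 22.9% and 32.8%. Agt and Enpp2 were also common in smooth muscle-like cells, at 54.3% and 73.1% for Agt and 35.7% and 54.5% for Enpp2, so that both markers were shared with that group. In matrix fibroblasts Agt was found in 20.4% and 23.7% of cells and Enpp2 in 2.58% and 3.23%. The label was not settled by these lists, and the cells are called the selected cells here.

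Markers of the other cell types were summed in the same way. The 15 immune genes summed to 0.998 and 1.98 (21.1 and 23.8 in all cells), with 4 and 6 of them seen at all. The 14 epithelial genes summed to 7.79 and 20.6 (218 and 313 in all cells). The surfactant gene Sftpc, which both cell types should lack, was seen in 59.5% and 78.6% of the selected cells. In cells with Pecam1, which were deeper, it was seen in 59.1% and 82.9%. With every cell thinned to the same depth, the shares were 32.4% and 52.7% in the selected cells and 28.9% and 40.2% in cells with Pecam1. At that depth the share was higher in the selected cells than in cells with Pecam1, more so in Batch 2. Thinned in the same way, smooth muscle-like cells gave 30% and 52.2% and matrix fibroblasts 24.1% and 48.8%. Whether the Sftpc UMIs were background from free RNA was not tested. The 6 glial genes summed to 0 and 0.725 (0.244 and 0.1 in all cells), and the 12 pericyte genes to 3.59 and 5.17 (4.53 and 3.07 in all cells). Both lists were thus below the level of all cells in Batch 1 and above it in Batch 2.

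Endothelial genes were concentrated in a few cells. In 1 cell of Batch 1 and 14 cells of Batch 2 the 16 endothelial genes gave 24 UMIs and 8 to 62 UMIs, while no other selected cell held more than 3. Each of these 15 cells carried Ednrb without Pdgfra. They held medians of 2295 and 2456.5 UMIs. The list summed to 105 and 117 in them, close to the 108 and 99.7 of cells with Pecam1, and Enpp2 stood there at 0 and 1.71 and Agt at 0 and 0.285. Among the remaining cells with Ednrb alone the list summed to 5.07 and 3.58, next to 5.70 and 3.74 in cells with Pdgfra and 5.09 and 4.54 in matrix fibroblasts. No doublet caller was run, and whether these were endothelial cells without a Pecam1 UMI, doublets or neither was not tested.

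**Figure D1:**
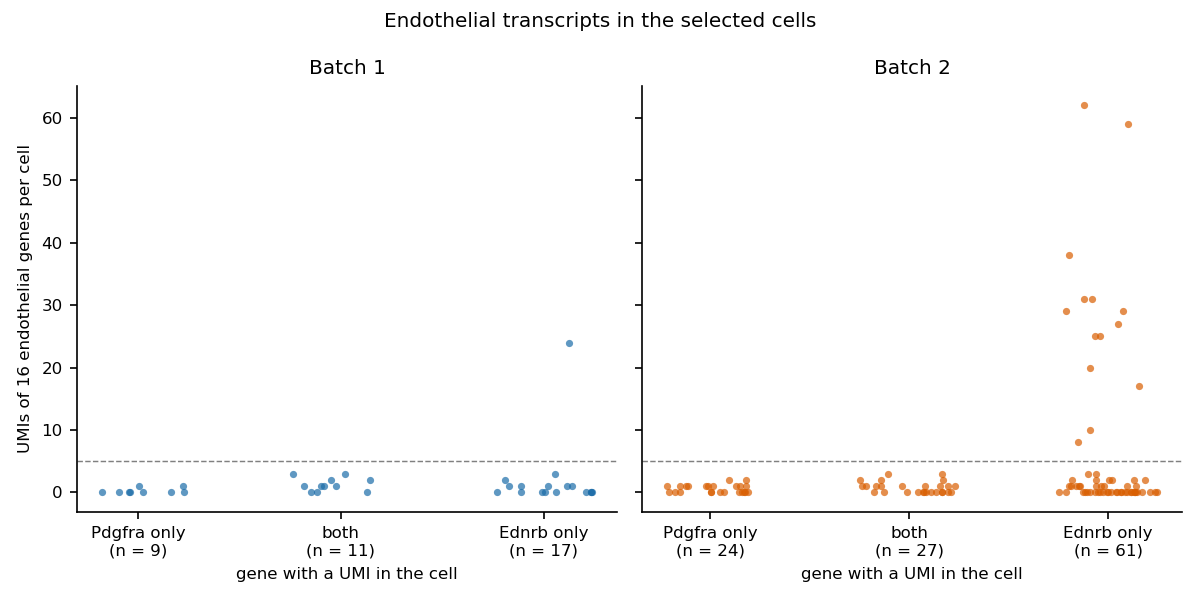
UMIs of the 16 endothelial genes in each selected cell (vertical axis) by the receptor that admitted it and by batch, 1 point per cell. The 15 cells with 8 to 62 endothelial UMIs all belong to the cells with Ednrb and no Pdgfra UMI, and every other cell lies at 3 or below.

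Hemoglobin was concentrated in a few cells as well. The 4 globin genes summed to 1066 and 284, and 2 cells of Batch 1 (1725 and 1890 UMIs) and 4 cells of Batch 2 (240 to 2405 UMIs) held 67.7% and 73.4% of these UMIs. No other selected cell held more than 134 and 71. Without both sets 34 and 94 cells remained, called the reduced set, which was defined after the data had been seen. Calls of named genes that were lost in it are given beside the results.

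At the edge of the rule, cells that met every condition but carried exactly 1 Tgfbi UMI numbered 10 and 44, and cells with exactly 2, just inside it, numbered 4 and 28. Enpp2 stood at 4.85 and 6.38 outside the edge, 9.98 and 22.4 at 2 UMIs, and 9.98 and 14.9 at 3 or more. Limch1, a gene of matrix fibroblasts, stood at 2.43 and 9.78 outside, 0 and 0.83 at 2 UMIs, and 2.22 and 0.567 above. Endothelial-rich cells made up 3 of 10 and 19 of 44 cells outside the edge, 1 of 4 and 7 of 28 at 2 UMIs, and 0 of 33 and 7 of 84 above.

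**Figure D2:**
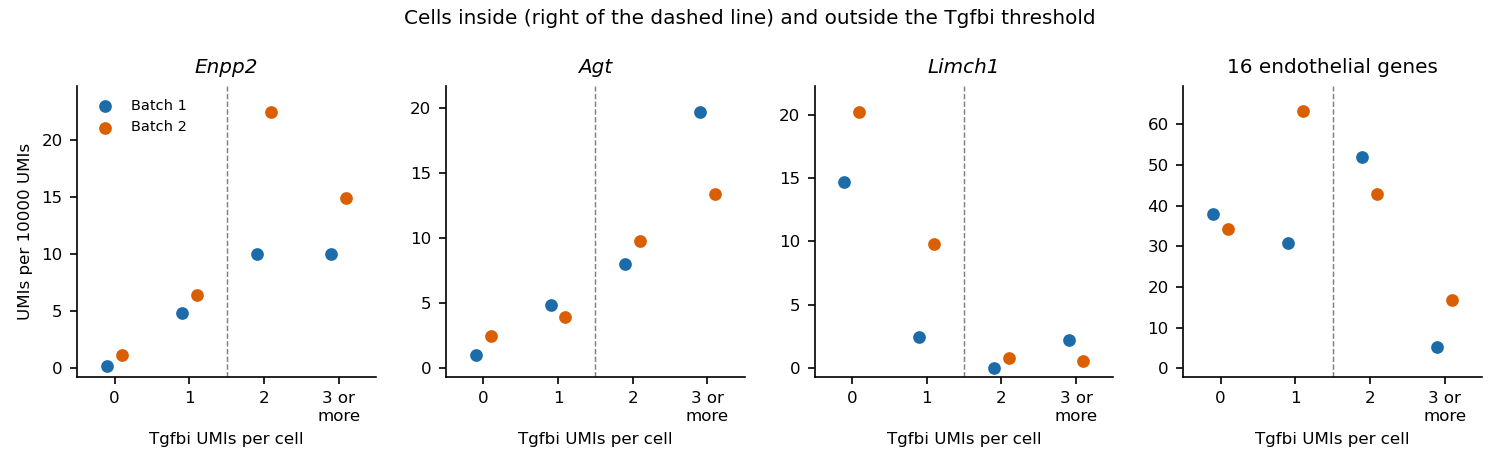
Levels (UMIs per 10000, vertical axes) of Enpp2, Agt, Limch1 and the endothelial list by the number of Tgfbi UMIs, in cells that met all other conditions, 1 point per batch. The dashed line marks the threshold of the rule. Enpp2 rises from 0.153 and 1.16 at 0 Tgfbi UMIs to 9.98 and 14.9 at 3 or more, and Limch1 falls from 14.7 and 20.2 to 2.22 and 0.567.

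The selected cells were first compared with all other cells of their batch. The fitted level of the secreted phospholipase Enpp2 was 17.0-fold higher than in the rest, that of angiotensinogen (Agt) 13.1-fold, that of the growth factor Igf1 12.1-fold and that of Notum, which inactivates Wnt ligands, 21.8-fold, whereas all 14 genes of the epithelial list were lower. In edgeR's quasi-likelihood test with the batch as a block, 777 of 11803 genes passed an adjusted p of 0.05 (6.58%). Of these 233 were higher (1.97% of the genes tested) and 544 lower (4.61%), and the median log2 fold change of all genes was -0.29. Without the block 226 genes passed, and DESeq2 gave 101 higher and 141 lower genes, a larger share on the higher side. Many of the lower genes are those of the epithelial, endothelial and immune cells that the rule removed.

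Of the 16 genes listed for alveolar myofibroblasts, 15 were tested, 13 were higher and 0 lower, with a median log2 fold change of 2.82. The list was chosen with earlier results of these data known, so this count describes the cells and is no independent check of the label. Enpp2, which makes lysophosphatidic acid and lies on the minus strand of chromosome 15 from 54838901 to 54952892, gave 9.98 and 16.6 in the selected cells against 0.55 and 0.643 in the rest (log2 fold change 4.09 ± 0.31 SE, adjusted p = 4.31e-35). Agt, the precursor of angiotensin, gave 18.6 and 12.5 against 1.1 and 0.727 (3.71 ± 0.30, adjusted p = 2.45e-32). In both batches the selected cells were the higher group for both genes, by far more than the batches differed.

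Penk, which encodes the opioid precursor proenkephalin, stood at 2.0 and 5.17 against 0.185 and 0.158 (4.09 ± 0.46). Igf1, a growth factor, stood at 4.59 and 7.25 against 0.685 and 0.239 (3.60 ± 0.39). Kcnj8, a subunit of an ATP-sensitive potassium channel, stood at 2.4 and 2.27 against 0.208 and 0.128 (3.54 ± 0.47). Its partner subunit Abcc9 was higher as well, at 1.6 and 0.435 against 0.0662 and 0.0361 (3.66 ± 0.79, adjusted p = 0.000165). Wnt5a, a non-canonical Wnt ligand, stood at 3.99 and 1.89 against 0.648 and 0.145 (2.82 ± 0.43), and Hhip at 2.6 and 3.14 against 0.406 and 0.4 (2.50 ± 0.42). The members that did not pass were Aspn, a small proteoglycan, at 8.19 and 0.435, of which 1 cell of Batch 1 held 16 of 41 UMIs, and Lgr6, a receptor for R-spondins with 1 UMI in each batch. Lgr5 was at 0 in the selected cells and was too rare to be tested.

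**Figure D3:**
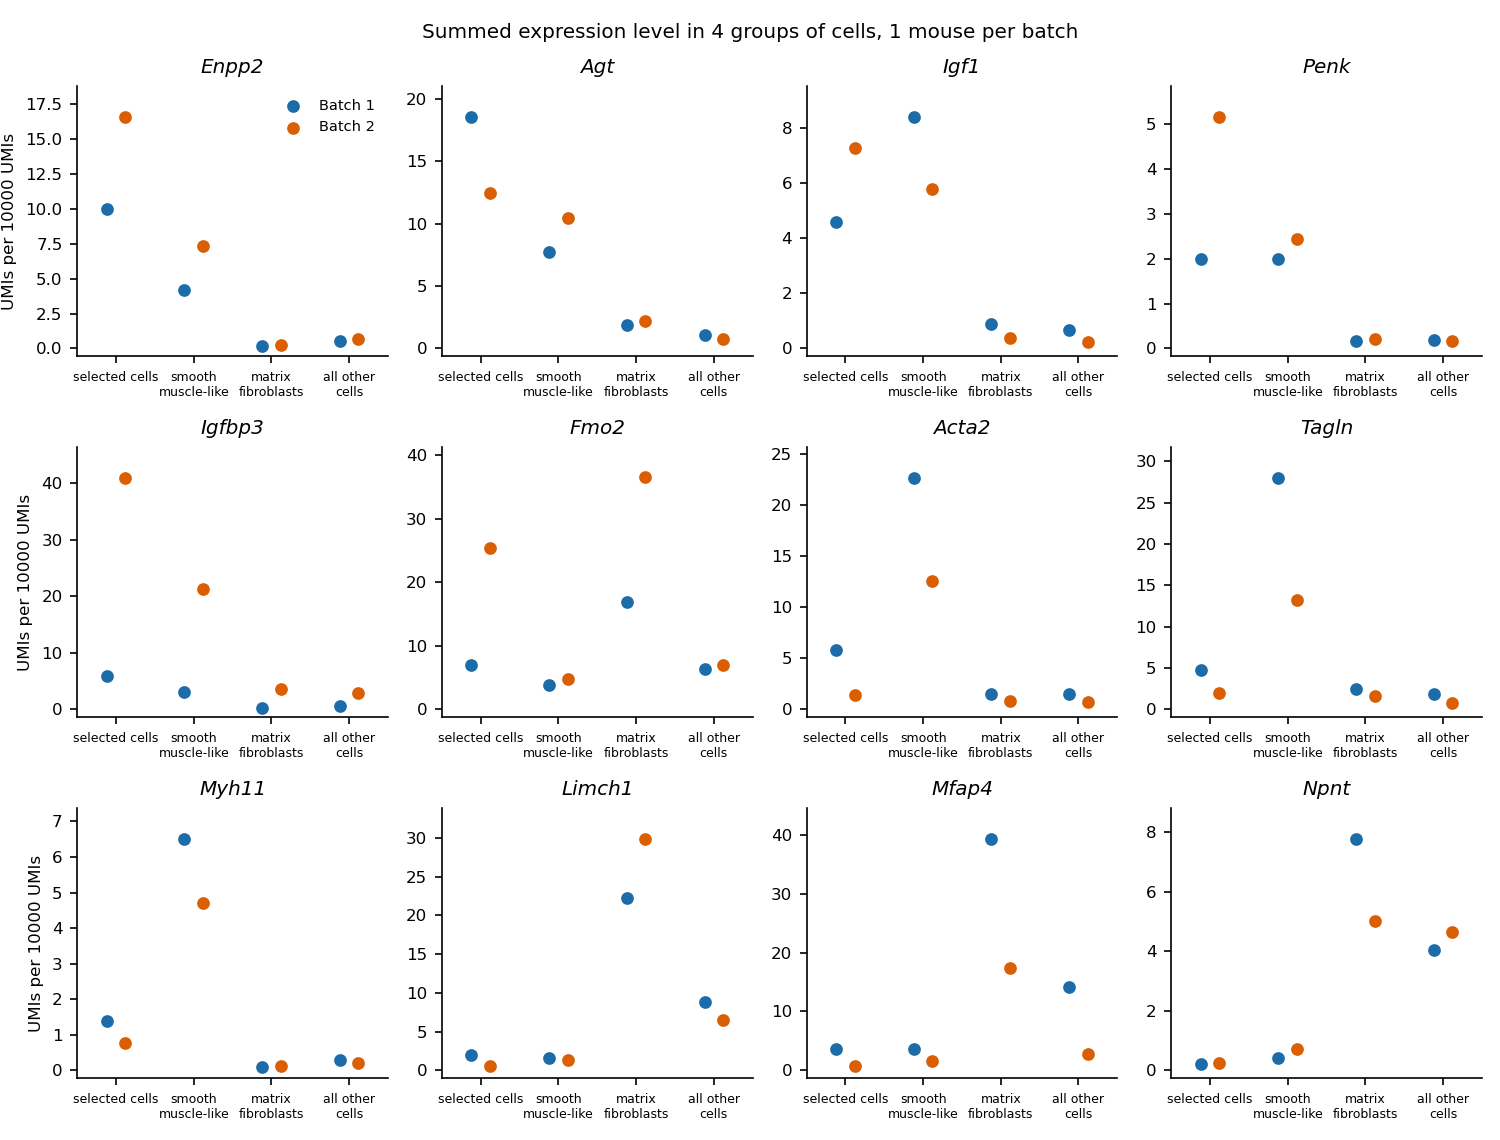
Levels (UMIs per 10000) of named genes of 12 genes in the selected cells, smooth muscle-like cells, matrix fibroblasts and all other cells, 1 point per batch and 1 panel per gene, on linear axes. Enpp2 is highest in the selected cells, at 9.98 and 16.6, while Acta2 is highest in smooth muscle-like cells, at 22.7 and 12.6.

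Of 23 Wnt genes 4 were higher (Dkk3, Lef1, Notum and Wnt5a) and 0 lower, with a median of 1.38. Notum, a secreted enzyme that inactivates Wnt ligands, stood at 4.99 and 0.58 against 0.135 and 0.0277 (4.45 ± 0.60), lower in Batch 2 in either group. Lef1, a transcription factor through which Wnt signals act, stood at 0.998 and 1.02 against 0.0913 and 0.0871. Axin2, a feedback inhibitor of the pathway, had values of 0.998 and 1.26 against 0.529 and 0.3 and did not pass (adjusted p = 0.0902). It was seen in 5 and 21 of the selected cells. Fgf7, a growth factor for epithelium, was seen in 2 and 25 cells, and 0 and 11 cells carried both.

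For hedgehog, 2 of 8 genes tested were higher, Hhip and the coreceptor Boc (1.2 and 1.11 against 0.29 and 0.126), and Gli1, a target of the pathway, was seen at 0.799 and 0. For TGF-beta, 6 of 19 were higher and 0 lower: the ligand Tgfb3, the coreceptor Tgfbr3, the latent binding proteins Ltbp2 and Ltbp3, and the targets Serpine2 and Tnc. For BMP, 3 of 15 were higher, among them the ligand Bmp2 at 1.8 and 2.47 against 0.176 and 0.196 (3.19 ± 0.48). For FGF, 2 of 13 were higher, Fgf18 and Fgf7. Fgf7 stood at 0.399 and 1.69 against 0.335 and 0.287 (1.68 ± 0.51, adjusted p = 0.0199). Its log2 difference was -0.24 in Batch 1 and 2.27 in Batch 2, of opposite direction, and DESeq2 did not call it (adjusted p = 0.65). Fgf18 stood at 0.799 and 0.773 against 0.148 and 0.0893 (2.54 ± 0.67), and DESeq2 did not call it (adjusted p = 0.0844).

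Of the insulin-like growth factor genes 4 of 12 were higher and 2 lower. Igfbp3, which binds IGFs outside the cell, stood at 5.99 and 40.9 against 0.561 and 2.96 (3.27 ± 0.28), a difference of similar fold in both batches although its level was higher in Batch 2 in either group. The imprinted RNA H19 stood at 8.19 and 13.3 against 1.55 and 1.38. Igfbp7 was lower, at 0.998 and 1.55 against 6.05 and 3.22, and Igfbp6 was at 0.

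Among 20 genes of vascular tone 7 were higher and 1 lower. Rgs2, which turns off the G protein signal of constrictor receptors, stood at 12.4 and 40.0 against 2.39 and 2.93 (2.75 ± 0.26). Npr3, the clearance receptor for natriuretic peptides, the potassium channel Kcnk3 and the cyclooxygenase Ptgs1 were also higher. Ptgis, which makes prostacyclin, was lower, with 2 UMIs in all selected cells, but missed the threshold in the reduced set (adjusted p = 0.0636).

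For elastic fibres 5 of 16 genes were higher and 2 lower, with a median of 0.27. Elastin itself (Eln) stood at 3.99 and 6.82 against 1.73 and 1.35 (1.49 ± 0.35), and the microfibril gene Mfap2 at 11.4 and 10.5 against 3.28 and 1.99. The cross-linking enzyme Loxl2 stood at 2.8 and 7.49 against 0.993 and 0.66. Mfap4 and Fbln5, which bind elastin, were lower. Of 16 collagens only Col1a2 and Col3a1 passed, both higher.

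Of 27 transcription factors of lung mesenchyme 8 were higher and 2 lower. The T-box genes Tbx5 (4.19 and 2.37 against 0.774 and 0.352) and Tbx4 (2.6 and 1.16 against 0.68 and 0.255) were among the higher ones, with Hlf, Hoxb5, Prdm6, Rora, Tshz1 and Zeb2. Foxp1 and Gata6 were lower. Of 12 lipid genes 2 were higher and 6 lower, or 5 lower in the reduced set, where Insig1 missed the threshold. Of 12 matrix fibroblast genes 8 were lower and 0 higher, with a median of -3.20 (-2.22 with the 3 genes that were at 0 in the selected cells put at their bound).

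Among the other groups, 4 of 23 contractile genes were higher (Cald1, Fhl2, Mylk and Pdlim3) and 2 lower. All 14 epithelial genes and 8 of 15 immune genes were lower. So were 3 of 11 adventitial genes, 1 of 2 mesothelial genes and 2 of 15 cell cycle genes, and 1 of 11 pericyte genes (Cspg4) was higher. Of 16 endothelial genes 8 were lower, and 15 of 16 in the reduced set. None of the 4 globin genes passed with all selected cells, and all 4 were lower in the reduced set (median -1.29). The reduced set was cut on these same endothelial and globin genes, and the other cells were not. Its counts for both lists thus follow in part from the cut. The 1 glial gene that could be tested did not pass. The immune and cell cycle counts fell to 7 and 1 in the reduced set, without C1qb and Cenpf, and the contractile genes that were higher numbered 6, with Tagln and Myh11 added. Of 18 genes of the unfolded protein response 1 was higher, Creb3l2.

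The genes that rose most against all other cells were rare ones. Zfp536, a zinc finger repressor, gave 4 and 17 UMIs in 4 and 15 cells (log2 fold change 5.80 ± 0.86). Col6a4, Tex29, C030005K06Rik, Cntfr, Cyp1b1 and Adamts14 followed with log2 fold changes of 4.37 to 5.00 and at most 33 UMIs in a batch. Crh, which encodes corticotropin-releasing hormone, owed 9 of its 10 UMIs to 1 cell of Batch 1. GOLT1A stood at 7.19 and 0.29 (5.18 ± 0.64). The genes that fell most were at 0 in the selected cells: against a floor of 3 counts over the group, Aqp5 of type 1 alveolar cells was at least 11.4-fold lower, Stfa3 11.0-fold, Lamp3 of type 2 cells 9.49-fold, and Bend7, Muc1, Irx1, Scnn1g, S100a14, Il18r1 and Gm13304 between 6.25-fold and 7.76-fold. DESeq2 did not call Aqp5, Bend7 and Il18r1 (adjusted p = 0.672, 0.0501 and 0.0521).

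The closest cells were those with at least 2 Tgfbi UMIs and at least 1 UMI of Actg2, Cnn1 or Des, called smooth muscle-like here, of which there were 70 and 134. Epcam, Pecam1, Ptprc, Tyrobp and Fcer1g were at 0 in them as well. No condition was set on Pdgfra or Ednrb, so cells with either receptor could fall in this group. Against this group, genes of contraction and fibrillar collagen were lower in the selected cells. Higher were 23 genes, Enpp2, Igfbp3, Npr3 and Fmo2 among them. Of these 23, 4 were globin genes, and the globin genes and 5 others (BC028528, Calcrl, Pcf11, Plcb4 and Ramp2) were not called in the reduced set. In a fit of the selected cells, smooth muscle-like cells and matrix fibroblasts of both batches, 78 of 4498 genes passed (1.73%), the 23 higher ones (0.511%) and 55 lower (1.22%), around a median of -0.0. Without the batch as a block 0 genes passed in edgeR, with 243 at an unadjusted p under 0.05, and DESeq2 with the block called 50. The smooth muscle-like cells were set apart by muscle genes, so the contractile genes, which vary with those, are not independent of the choice.

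Of 23 contractile genes 11 were lower in the selected cells and 0 higher, with a median of -1.26. Acta2, which lies on the minus strand of chromosome 19 from 34241090 to 34255590, stood at 5.79 and 1.4 against 22.7 and 12.6 (-2.60 ± 0.28, adjusted p = 4.07e-05). Tagln, an actin-binding protein, stood at 4.79 and 2.03 against 28.0 and 13.2 (-2.66 ± 0.24), and smooth muscle myosin Myh11 at 1.4 and 0.773 against 6.51 and 4.72 (-2.52 ± 0.38). In both batches the selected cells were the lower group for each of these. Mylk, the kinase that activates myosin, had similar levels of 7.59 and 3.38 against 7.24 and 2.69 (0.17 ± 0.27).

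Of 14 collagens 7 were lower and 0 higher, with a median of -1.14, and 6 were lower in the reduced set, where Col12a1 missed the threshold. Col3a1 stood at 15.0 and 12.3 against 40.5 and 29.4 (-1.35 ± 0.17), Col1a1 at 7.59 and 5.75 against 21.7 and 13.1 (-1.31 ± 0.22), and Col1a2 at 21.4 and 27.1 against 49.5 and 45.6 (-0.96 ± 0.17). The basement membrane collagens Col4a1 and Col4a2 had log2 fold changes of 0.09 ± 0.22 and 0.38 ± 0.25. For elastic fibres 3 of 14 were lower, Loxl1, Loxl2 and Mfap5, while Eln stood at 3.99 and 6.82 against 3.99 and 6.15 (0.09 ± 0.25). Loxl1, a cross-linker of elastin, had 1 and 4 UMIs in the selected cells and 19 and 51 in the others.

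Of 18 TGF-beta genes 5 were lower: Ctgf, Cyr61, Serpine2, Thbs1 and Tnc, all secreted matrix-associated proteins. In the reduced set 4 were lower, without Serpine2 (adjusted p = 0.0723). Ctgf stood at 3.0 and 0.773 against 12 and 5.86 (-2.57 ± 0.45). Of 13 BMP genes 3 were lower, Fst, Fstl1 and Id2. Postn, a matricellular protein counted on the pericyte list, stood at 0.799 and 0.87 against 5.98 and 6.72 (-2.91 ± 0.35). Other genes with large differences on the lower side were Ptgis, Pgf (a ligand of the VEGF receptor), Hspa4l and Lmod1, the last not in the reduced set (adjusted p = 0.051).

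The alveolar list was divided, with 2 of 14 genes higher and 2 lower, around a median of -0.12. Enpp2 was higher, at 9.98 and 16.6 against 4.2 and 7.37 (1.19 ± 0.24, adjusted p = 0.00993). Stc1, a secreted glycoprotein on chromosome 14 from 69029238 to 69041804, was higher at 28 and 15 UMIs against 2 and 1, a ratio of 19 with a 95% counting interval of 6.09 to 95.8. Single cells held 11 and 6 of those UMIs, and DESeq2 did not call the gene (adjusted p = 0.427). Aspn was lower, at 8.19 and 0.435 against 37.5 and 8.75 (-2.87 ± 0.66), though not in DESeq2 (adjusted p = 0.681), and so was Net1, an exchange factor for RhoA, at 4.19 and 5.75 against 12.1 and 9.85 (-1.09 ± 0.26), though not in the reduced set (adjusted p = 0.0709). Agt had levels of 18.6 and 12.5 against 7.77 and 10.5 and did not pass (0.69 ± 0.23, adjusted p = 0.215).

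Further higher genes were Igfbp3 (5.99 and 40.9 against 3.15 and 21.2, 0.93 ± 0.21, adjusted p = 0.0225), Npr3 (2.0 and 8.75 against 0.84 and 2.69, 1.60 ± 0.31), the flavin monooxygenase Fmo2 (6.99 and 25.4 against 3.78 and 4.8, 1.85 ± 0.26, adjusted p = 0.000589), the selenium carrier Sepp1 (1.76 ± 0.34), the matrix protein Abi3bp (2.54 ± 0.56) and the lipase inhibitor Angptl4 (8 and 26 UMIs against 3 and 2, 3.14 ± 0.67). In the reduced set these 6 genes still passed, and DESeq2 did not call Igfbp3 and Abi3bp (adjusted p = 0.212 and 0.0545). Fmo2 was higher still in matrix fibroblasts, at 16.9 and 36.6. A few well covered genes outside the lists were picked after their values were seen: Apoe, a lipid carrier, stood at 19.4 and 13.9 against 5.46 and 4.56 (1.70 ± 0.23), Mgp, an inhibitor of calcification, at 59.3 and 30.1 against 24.0 and 13.0 (1.24 ± 0.16), and Gpx3, a secreted peroxidase, at 8.99 and 13.4 against 3.99 and 4.32 (1.43 ± 0.24).

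Some of the higher genes rested on the cells that stood apart. All 4 globin genes were higher and 2 of 7 endothelial genes, Calcrl and Ramp2, which form the adrenomedullin receptor. In the reduced set 0 of 4 globin genes passed, Ramp2 had an adjusted p of 0.552, and Calcrl was too rare to be tested. These genes are among those on which the reduced set was cut, so their loss follows in part from the cut. Plcb4, BC028528 and Pcf11 also missed the threshold there, with adjusted p of 0.364, 0.278 and 0.0949. Of the remaining lists, 1 of 13 vascular tone genes was higher and 1 lower, 1 of 6 lipid genes was higher, 2 of 6 adventitial genes and 1 of 6 epithelial genes (Sftpc) were lower, and no gene passed among 16 Wnt, 4 hedgehog, 10 FGF, 23 transcription factor, 12 matrix fibroblast, 13 immediate early, 16 unfolded protein response, 3 immune, 1 mesothelial and 1 cell cycle genes.

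**Figure D4:**
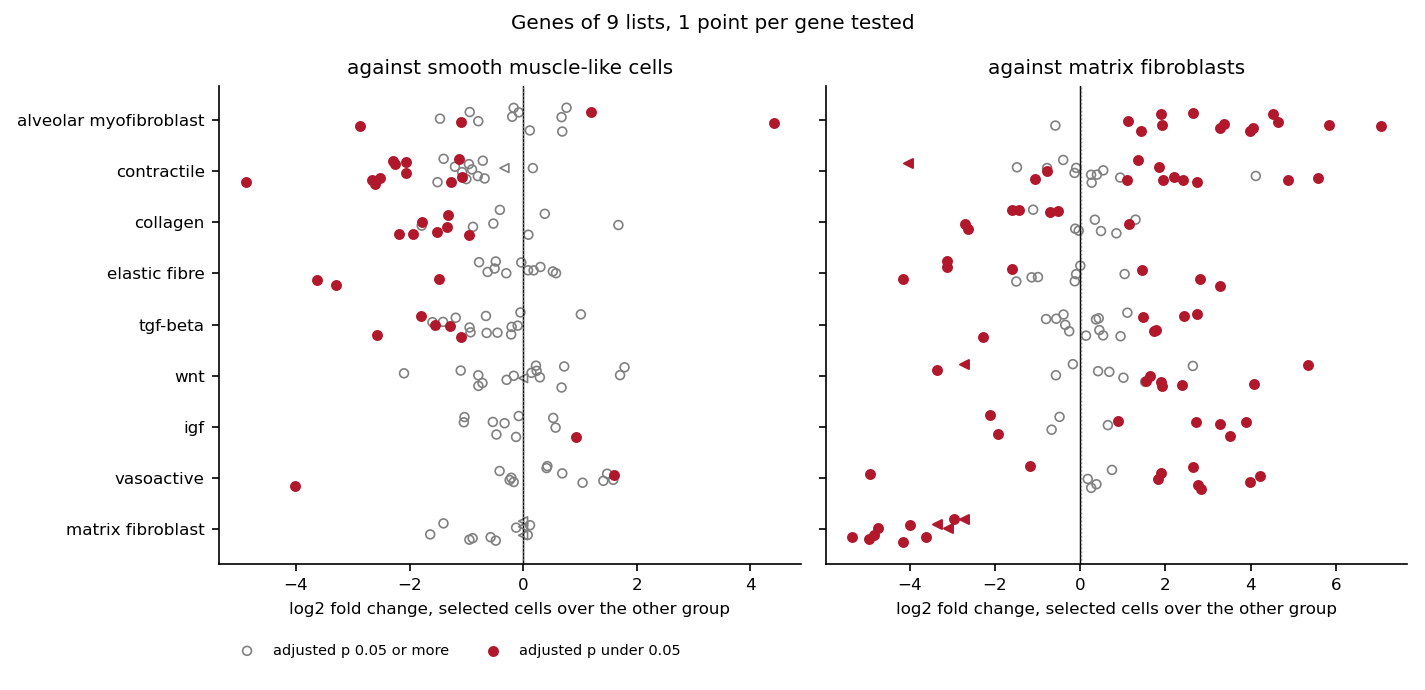
Log2 fold change of the selected cells over smooth muscle-like cells (left) and over matrix fibroblasts (right) for genes of 9 lists, 1 point per gene tested, filled where the adjusted p was under 0.05. Triangles are genes with 0 UMIs in one of the groups, placed at the bound that 3 counts allow. Contractile genes lie mostly below 0 on the left, alveolar myofibroblast genes mostly above 0 on the right, and matrix fibroblast genes all below 0 on the right.

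Against matrix fibroblasts (852 and 1082 cells with Tcf21, no Tgfbi and none of the muscle or lineage genes of the rule) the selected cells differed in far more genes. In the same fit 670 of 4497 genes passed (14.9%), 277 higher (6.16%) and 393 lower (8.74%), with a median of 0.02. Without the block 147 passed, and DESeq2 gave 191 higher and 183 lower. Of 14 alveolar genes 13 were higher, with a median of 3.33, and all 11 matrix fibroblast genes tested were lower, with a median of -4.85 (-3.99 with 3 genes at their bound). Because Tcf21 and Tgfbi defined this contrast, genes that travel with them were in part selected. The lists were also chosen with earlier results of these data known.

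Enpp2 stood at 9.98 and 16.6 against 0.185 and 0.214 (5.83 ± 0.28, adjusted p = 1.76e-10), Net1 at 4.19 and 5.75 against 0.178 and 0.2 (4.54 ± 0.30) and Agt at 18.6 and 12.5 against 1.92 and 2.19 (2.65 ± 0.23). Limch1, on the lower side, stood at 2.0 and 0.628 against 22.3 and 29.9 (-4.97 ± 0.33). The methyltransferase Inmt stood at 0.799 and 0.242 against 12 and 14.6, and fibronectin (Fn1) at 0.399 and 0.29 against 9.4 and 6.79. Each of these gaps was wider than the difference between the batches.

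Several genes of matrix fibroblasts had no UMI in the selected cells. Angpt1, a ligand for the endothelial receptor TIE2, was at least 18.1-fold lower. Pcolce2, an enhancer of collagen processing, was at least 21.6-fold lower, the integrin subunit Itga8 16.4-fold, the aminopeptidase Enpep 15.1-fold, Mettl21e 14.8-fold, Cped1 14.7-fold, the growth factor Fgf10 10.2-fold, Vcam1 8.65-fold, Ppp4r4 7.84-fold and Scube2 7.49-fold. DESeq2 did not call Enpep and Fgf10 (adjusted p = 0.601 and 0.493). Itga8 is on the contractile list. On the other side Pirt gave 12 UMIs in the selected cells, 6 of them in 1 cell, and 0 in matrix fibroblasts, at least 52.9-fold higher. Htra1, a secreted protease, gave 29 and 18 UMIs against 2 and 2 (7.22 ± 0.66), and Nrxn3, a synaptic adhesion protein, 3 and 35 against 3 and 1 (6.32 ± 0.73). Ccdc3 gave 8 and 7 against 1 and 0, a ratio of 198 with a counting interval of 30.5 to 8345.

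The signalling lists were divided. Of 16 Wnt genes 7 were higher and 2 lower (median 1.54), the higher ones being the ligand Wnt5a, the receptor Fzd2, the transcription factor Lef1 and the inhibitors Notum, Dkk3, Nkd1 and Wif1, and the lower ones Wnt2 and Sfrp1. Of 18 TGF-beta genes 5 were higher and 1 lower, the receptor Tgfbr2 at 0 and 0.483 against 1.41 and 1.63. Of 13 BMP genes 4 were higher, among them Bmp2 at 1.8 and 2.47 against 0.0232 and 0.0571 (5.39 ± 0.52). Of 10 FGF genes Fgf18 and Spry1 were higher, and Fgf10 and the receptors Fgfr3 and Fgfr4 were lower. Fgf7 had similar levels of 0.399 and 1.69 against 0.803 and 1.39 (-0.17 ± 0.38). Of 4 hedgehog genes 1 was higher, Hhip.

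Of 10 insulin-like growth factor genes 5 were higher, with H19 at 8.19 and 13.3 against 0.525 and 0.714 (3.89 ± 0.24) and Igf2 at 4.19 and 3.48 against 0.402 and 0.552 (2.71 ± 0.33), and Igf2r and Igfbp7 were lower. Of 13 vascular tone genes 7 were higher (median 1.83) and 2 lower, Ptgis and the type A endothelin receptor Ednra, the latter not in the reduced set (adjusted p = 0.0843). Rgs2 stood at 12.4 and 40.0 against 1.61 and 4.27 (2.84 ± 0.23). Of 23 contractile genes 9 were higher and 3 lower, with Acta2 at 5.79 and 1.4 against 1.5 and 0.842 (1.11 ± 0.29, adjusted p = 0.0124).

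Of 23 transcription factors 8 were higher and 3 lower. The long non-coding RNA Fendrr stood at 4.99 and 3.43 against 0.456 and 0.362 (3.12 ± 0.31), with Foxf1, the gene beside which it is transcribed, at 2.0 and 0.87 against 0.378 and 0.352 (1.52 ± 0.45), which missed the threshold in the reduced set (adjusted p = 0.0594). Meox2, Nr2f2 and Tbx2 were lower. Of 14 elastic fibre genes 3 were higher and 4 lower, with Eln at -0.09 ± 0.23, and of 14 collagens 1 was higher and 6 lower. In the reduced set 4 collagens were lower, without Col1a1 and Col1a2 (adjusted p = 0.114 and 0.222). Of 6 lipid genes 3 were higher and 1 lower, Plin2, which coats the droplets of lipofibroblasts. Among these Cd36 lost its difference in the reduced set, where its log2 fold change was -0.0.

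Of 13 immediate early genes 6 were higher and 0 lower, and 9 in the reduced set. This list summed to 33.3 and 125 in the selected cells and to 15.6 and 57.0 in all cells. It was thus higher in Batch 2 in all cells, and its part in the difference between cell groups was not tested. Of 7 endothelial genes 6 were higher, while in the reduced set 2 could be tested and 0 passed. Of 4 globin genes 3 were higher, against 4 lower in the reduced set. The matrix fibroblasts were not cut on endothelial or globin genes, so the reduced counts of both lists follow in part from the cut. Of the last lists, 2 of 5 pericyte genes (1 of 4 in the reduced set, where Cspg4 was too rare to be tested) and 1 of 16 unfolded protein response genes were higher, 4 of 6 adventitial, 3 of 6 epithelial and 1 of 1 mesothelial genes were lower, and 0 of 3 immune and 0 of 1 cell cycle genes passed.

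The cells admitted by the 2 receptors were compared last, 20 and 51 cells with Pdgfra against 17 and 61 with Ednrb alone. No gene passed out of 1220 tested (0%), in edgeR or in DESeq2, and 65 had an unadjusted p under 0.05. The genes with the smallest p included several known from endothelium and had more UMIs in the cells with Ednrb alone. They were picked after their values were seen. Gpr116, an adhesion receptor, had 0 and 2 UMIs in cells with Pdgfra and 4 and 76 in cells with Ednrb alone, of which the 15 endothelial-rich cells held 2 and 75 (adjusted p = 0.323). Thbd, Calcrl, Ptprb and Gng11 followed.

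Away from those cells the receptor classes had overlapping levels. Enpp2 stood at 10.6 and 18.6 in cells with Pdgfra only, 10.2 and 26.6 in cells with both, and 10.6 and 16 in cells with Ednrb alone and under 5 endothelial UMIs. Agt stood at 25 and 11.6, 17.6 and 16.9, and 18.3 and 15.9 in the same order. Igfbp3 stood at 7.68 and 44.5, 3.97 and 58.9, and 7.6 and 42.9. With few cells and 2 mice, even large differences between the receptor classes could be missed at this depth. In simulated sums for this comparison 0 of 31 changes of 1 log2 unit were found. Of changes of 2 and 3 log2 units, 6 of 43 and 25 of 40 were found.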

How the data were processed

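Whole lungs of 2 newborn mice were profiled by Drop-seq, 1 mouse per batch. The authors aligned reads to mm10 with Bowtie2 2.2.7 (at most 1 alignment per read) and deposited un-normalized UMI counts per gene and cell, over exons, for cells with at least 500 genes. Cells with over 10% mitochondrial UMIs (1 and 1940) were removed here, leaving 2388 and 5615 cells with 4432553 and 18232639 UMIs. The selected cells held 50083 and 206857.

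Counts were summed per cell group and batch and tested across all genes with edgeR 4.0.16 (quasi-likelihood test, TMM, filterByExpr) in R 4.3.3, with the batch as a block and Benjamini-Hochberg adjustment over all genes tested. The 11 genes of the rule, and Tcf21 against matrix fibroblasts, were left out. The replicate numbers pair the sums, since sums of a batch come from the same mouse, and their deviations correlated at 0.383 to 0.517 over 4498 genes. The scripts were tested on simulated data. DESeq2 1.42.0, other filters and other limits were alternatives.

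The members of the group and the gene lists were chosen with earlier results of these data known. Named genes are those of 25 lists and up to 10 genes that differed most on either side with an adjusted p under 0.05, at 50 CPM or more in the higher group and in the same direction in both batches. A gene at 0 in a group is given by a bound from 3 counts over the group. No doublet caller was run. Cells above the 99th percentile of UMIs were left out as an alternative.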

Additional observations from a re-analysis of the deposited data

Results flagged for a closer look

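In data outside the comparisons, 10 cells of Batch 2 exceeded the limit of 10% mitochondrial UMIs and met every other condition of the rule, out of 1940 cells over that limit, and Batch 1 had 0 such cells. They held Enpp2 at 22.3, Agt at 6.46 and Igf1 at 13.5 UMIs per 10000.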

How the results depend on the processing

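Settings that moved the counts of genes past the threshold by over 1.5 times were as follows. Against all other cells, 777 became 226 without the replicate block, 242 with DESeq2, 500 with selected cells free of any endothelial, immune, glial or mesothelial UMI, and 511 with Pdgfra-bearing cells alone. Against smooth muscle-like cells, 78 became 0, 50 and 8 under the first 3 of these, 140 with at least 1 Tgfbi UMI and 37 with at least 3. Against matrix fibroblasts, 670 became 147, 374 and 435 under the first 3. Between the receptor classes the count stayed 0 without the block, and 0 became 19 with no filter on low counts and 74 with at least 1 Tgfbi UMI. The share of cells, 1.86%, was 1.55% to 1.99% with 1 replicate left out, 1% after thinning, 2.54% and 1.46% with at least 1 and at least 3 Tgfbi UMIs, and 0.887% with Pdgfra-bearing cells alone. The log2 fold changes of 3 genes turned. Fgf7 against all other cells was -0.24 without replicate 2 and 2.27 without replicate 1. Cd36 against matrix fibroblasts was -0.0 in the reduced set. Ramp2 against smooth muscle-like cells was -8.83 in cells free of other lineages' UMIs. Ramp2 is on the endothelial list, so that setting put it at 0 in the selected cells by definition. The causes of the other changes were not tested, other than that smaller sets hold fewer cells. Limits on endothelial or globin UMIs, and Pdgfra alone, were added after seeing the data. Among named genes, 64, 152 and 86 calls were lost over the alternatives with a test in the 3 comparisons. In 622, 370 and 756 cases a gene kept its direction and its side of the threshold, whether it had been called or not. Counting error limits genes with a few UMIs.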
